A study of Mus musculus with 9 samples.

Results

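The 10 genes studied encode modulators or readouts of Wnt signalling and were examined in mouse limb micromass cultures treated with caspase inhibitors: Sfrp1, Sfrp2, Frzb, Wif1, Dkk2, Dkk3, Rspo3, Wnt5a, Axin2 and Lef1. They were taken by symbol from a table of 52550 genes. All 10 members passed the filter on low counts, which 13255 genes passed. Micromass cultures are dense drops of cells that form cartilage in the dish, and here they were made from mouse forelimbs at embryonic day 12. Each of the 3 groups had 3 libraries, which the labels call biological replicates without naming a litter or strain. One group received Z-VAD-FMK (FMK) at 100 µM, another received Q-VD-OPH (OPH) at 100 µM, and the control group received the vehicle DMSO in parallel. Exposure lasted 6 days, with fresh agent every second day, and all 3 groups were grown in the same cartilage-supporting medium with serum. Both agents are cell-permeable peptide-like inhibitors that bind a wide range of caspases, the proteases of apoptosis. They differ at both ends of the molecule, with a fluoromethyl ketone in FMK and a difluorophenoxy methyl ketone joined to a quinoline cap in OPH.

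Wnt proteins are secreted ligands that bind Frizzled receptors and, in the canonical branch, LRP co-receptors, which stabilises beta-catenin so that it can activate genes together with TCF/LEF factors. Secreted antagonists act before the receptor: SFRP proteins and WIF1 bind Wnt ligands, while several DKK proteins bind LRP co-receptors. R-spondins act through LGR receptors to keep Frizzled receptors on the cell surface. In the limb, canonical Wnt signals restrain early chondrogenesis, and antagonists such as Frzb are made by forming cartilage.

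The stretch before the start site is shown for Sfrp2, a secreted antagonist that passed the test with both inhibitors, and for Axin2, the canonical readout that did not. Each is 250 bases of the GRCm38.p6 assembly from RefSeq, written 5′ to 3′ on the plus strand, at chr3:83766071-83766320 for Sfrp2 and chr11:108920099-108920348 for Axin2. Capitals in Sfrp2 mark the octamer ATGCAAAT, read in reverse, and capitals in Axin2 mark the GC box GGGCGG.
Sfrp2: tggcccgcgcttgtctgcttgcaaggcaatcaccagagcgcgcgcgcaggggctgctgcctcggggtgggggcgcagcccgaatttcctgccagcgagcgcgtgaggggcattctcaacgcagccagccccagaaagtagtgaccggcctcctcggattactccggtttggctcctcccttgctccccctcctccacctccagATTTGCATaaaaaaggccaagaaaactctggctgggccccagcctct
Axin2: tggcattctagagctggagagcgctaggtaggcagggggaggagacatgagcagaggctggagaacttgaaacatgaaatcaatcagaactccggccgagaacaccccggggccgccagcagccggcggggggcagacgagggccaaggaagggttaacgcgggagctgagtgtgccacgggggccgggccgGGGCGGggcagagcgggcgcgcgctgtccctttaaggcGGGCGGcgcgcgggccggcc
Both strands were searched for these motifs, for the TATA box TATAAA and for the TCF/LEF core CTTTGA, and no marked motifs overlap. The octamer in Sfrp2 starts 47 bases before the start site, and the GC boxes in Axin2 start 58 and 20 bases before. Neither window held CTTTGA. Among 32851 windows of this length in the RefSeq table, 13.8% held CTTTGA, 32.7% held GGGCGG, 12.4% held TATAAA and 1.6% held ATGCAAAT. The GC content was 63.6% in Sfrp2 and 69.2% in Axin2, with 16 and 24 CpG dinucleotides. In all, 6 of the 10 genes were found in the RefSeq promoter table. Of those not shown, Frzb held CTTTGA, read in reverse, 95 bases before the start site. Of the Lef1 windows, only that at chr3:131156044-131156293, well inside the gene, held CTTTGA, read in reverse, 180 and 120 bases before its start site. The Lef1 windows near the start of the gene did not hold it, nor did the windows of Dkk2 and Wif1. A match describes letters in a window and is not a binding site.

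Library totals ran from 5659789 to 6867350 counts. A level is a CPM value, the count relative to the library total after TMM scaling, and group levels are means ± SD (n = 3). Fold changes are log2 values ± a standard error derived from the F value of the test. A gene is said to rise or fall where the Benjamini-Hochberg adjusted p of edgeR's quasi-likelihood test over all 13255 genes was under 0.05. Libraries with the same replicate number deviated together, so a second fit with the replicate number as a block is given for each of the 10 genes where it changed a call and for the pathway lists whose counts against DMSO are given, where it changed them. Markers of other cell types moved with the groups. Of 11 cartilage markers, 9 fell with FMK and 6 with OPH, and their summed level lay between 2820 and 4141 CPM in DMSO libraries, 1422 and 1527 in FMK libraries, and 1371 and 2372 in OPH libraries. All 12 macrophage markers fell with both inhibitors, with sums between 1103 and 2184 CPM in DMSO libraries, between 27.9 and 42.9 in FMK libraries and between 159 and 180.0 in OPH libraries. Of 10 adipocyte markers, 6 fell with FMK and 0 passed the edgeR test with OPH; their sums were 487 to 2390, 114 to 203 and 737 to 2831 CPM with DMSO, FMK and OPH, and Cidec was at 0 counts with FMK. In each group library 3 had the lowest sum of adipocyte markers and the highest of muscle markers. Of 10 markers of joint interzone, tendon and perichondrium, 1 rose and 3 fell with FMK and 5 fell with OPH. Their sums lay between 11894 and 14486 CPM in DMSO libraries, 11261 and 12368 in FMK libraries, and 9256 and 9626 in OPH libraries. Col1a1 alone had means of 11768.5, 11153.1 and 8749.74 CPM with DMSO, FMK and OPH. These sums therefore mostly show Col1a1 and say little about the other markers. The tendon marker Tnmd had log2 fold changes of -1.95 and -1.41 with FMK and OPH (edgeR adjusted p = 2.17e-06 and 5.27e-05), and the joint lubricant gene Prg4 rose with FMK by 3.24 (adjusted p = 0.00334). The tendon genes Scx and Mkx and the joint gene Gdf5 of the same list were not called with either inhibitor. Their log2 fold changes were -0.30, -0.12 and 0.49 with FMK, and 0.13, -0.32 and 0.54 with OPH. Among 3 glial and melanocyte markers tested, S100b, which chondrocytes also express, fell and Mitf rose with both inhibitors. The muscle stem cell marker Pax7 and the glial marker Sox10 were at 0 in all 9 libraries. The part of these markers in the results on Wnt genes was not tested, and in bulk RNA fewer cells of a type and less RNA per cell cannot be told apart.

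Sfrp2 fell and Dkk3 rose with both inhibitors, and no other of the 10 genes passed the test without the block. That is 2 of 10 in each comparison with DMSO, beside 20.6% of all genes with FMK and 16.7% with OPH. By direction, 1 of 10 rose and 1 of 10 fell with each inhibitor, beside 10.4% of all genes higher and 10.1% lower with FMK, and 8.61% higher and 8.11% lower with OPH. With the replicate block 5 of 10 passed in each, beside 26.8% and 22.9% of all genes. The 3 further genes were Sfrp1, Frzb and Wif1 with FMK, and Sfrp1, Frzb and Dkk2 with OPH, all lower. The median log2 fold change of the 10 genes was -0.59 with FMK and -0.39 with OPH, where all genes had medians of -0.0064 and -0.0025. Both comparisons use the same 3 DMSO libraries, so they are not independent. The libraries of the groups did not overlap for 6 of the 10 genes with FMK, beside 35.5% of all genes, and for 4 with OPH, beside 33.7%.

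**Figure D1:**
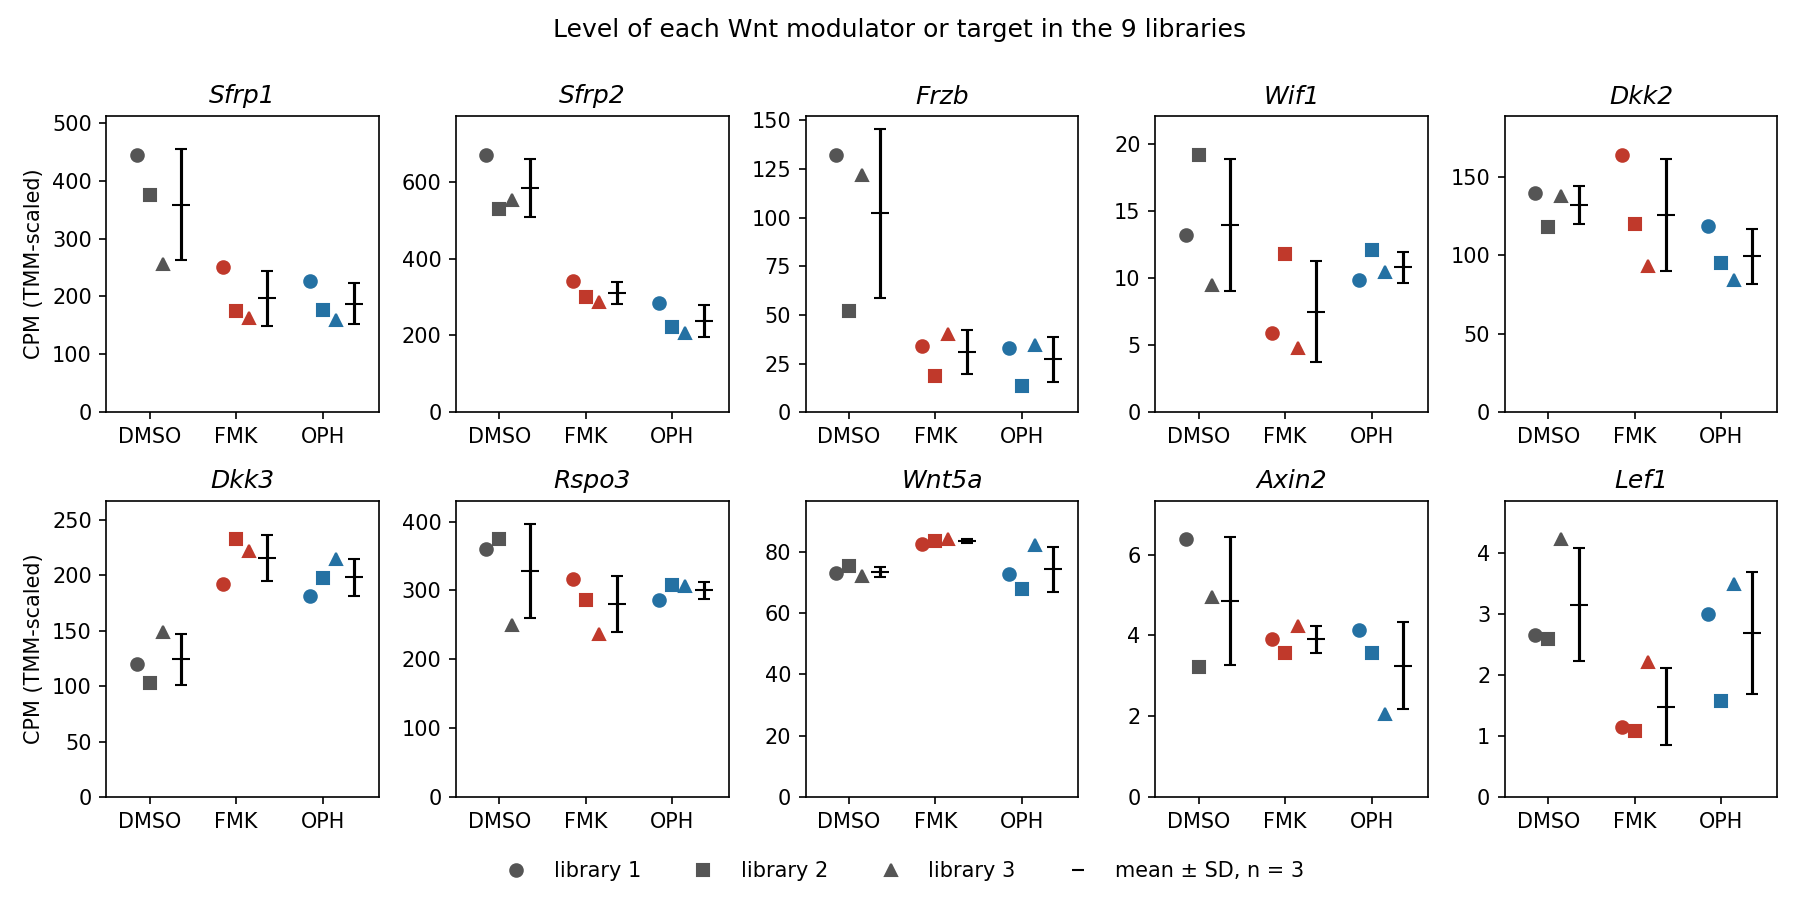
Level of each of the 10 genes (CPM, TMM-scaled, linear axes from 0) in DMSO, FMK and OPH cultures; symbols are the 3 libraries by replicate number and bars are mean ± SD. Sfrp2 lies at 530 to 671 CPM with DMSO and at 205 to 341 CPM in the 6 inhibitor libraries, while Dkk3 lies at 103 to 149 and 181 to 232 CPM.

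Sfrp2 (ENSMUSG00000027996, GRCm38 chromosome 3, 83766321 to 83774316, plus strand) encodes a secreted frizzled-related protein that binds Wnt ligands. Its level was 671, 530 and 552 CPM in the 3 DMSO libraries, 341, 301 and 288 with FMK, and 284, 222 and 205 with OPH. Every DMSO library was above every inhibitor library, and the FMK libraries were all above the OPH libraries. The means were 584 ± 76.0, 310 ± 27.8 and 237 ± 41.5 CPM. Sfrp2 fell with both inhibitors, by a log2 fold change of -0.91 ± 0.12 with FMK (edgeR adjusted p = 0.00014) and of -1.30 ± 0.13 with OPH (adjusted p = 1.02e-05). Both calls held under all 15 alternatives run for each comparison, with the adjusted p at most 0.00229 and 0.000556.

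Sfrp1 (ENSMUSG00000031548, chromosome 8, 23411502 to 23449632, plus strand), a close relative that also binds Wnts, was measured at 445, 375 and 256 CPM with DMSO, 252, 175 and 162 with FMK, and 226, 177 and 159 with OPH. In each group library 1 was the highest and library 3 the lowest, and the lowest DMSO library was just above the highest inhibitor library. The log2 fold change was -0.87 ± 0.27 with FMK (edgeR adjusted p = 0.0659) and -0.93 ± 0.27 with OPH (adjusted p = 0.0603), with 95% intervals of -1.50 to -0.23 and -1.57 to -0.30. With the replicate block both were called, at an adjusted p of 1.24e-09 and 4.61e-10. Within replicate numbers 1, 2 and 3 the log2 ratios were -0.82, -1.10 and -0.66 with FMK, and -0.97, -1.08 and -0.68 with OPH. Leaving out DMSO replicate 3 also gave a call in both comparisons (adjusted p = 0.019 and 0.02), and leaving out FMK replicate 1 gave one with FMK (adjusted p = 0.0337). In all, 7 of 15 alternatives called Sfrp1 with FMK and 5 of 15 with OPH. Among the others the adjusted p reached 0.177 and 0.169.

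Frzb (ENSMUSG00000027004, chromosome 2, 80411970 to 80447625, minus strand) encodes the frizzled-related protein first found in developing cartilage. The DMSO libraries held 132, 52.3 and 122 CPM, the FMK libraries 34.0, 18.6 and 40.3, and the OPH libraries 33.1, 13.7 and 34.5. Library 2 was the lowest in all 3 groups, and the groups did not overlap between DMSO and either inhibitor. The DMSO mean was 102 ± 43.6 CPM and the OPH mean 27.1 ± 11.6 CPM. The log2 fold change was -1.73 ± 0.52 with FMK (edgeR adjusted p = 0.067) and -1.92 ± 0.53 with OPH (adjusted p = 0.0562). With the block it was -1.70 ± 0.12 and -1.92 ± 0.12, and both were called (adjusted p = 1.11e-12 and 7.97e-14). Ratios within numbers 1, 2 and 3 were -1.96, -1.49 and -1.60 with FMK. With OPH they were -1.94 in number 2, -1.82 in number 3 and lower still in number 1. DESeq2 called both as well (adjusted p = 0.0091 and 0.00346), and so did edgeR without DMSO replicate 2 (adjusted p = 0.0364 and 0.0316). With limma-voom and the block these made 4 of 15 alternatives in each comparison. Among the others the adjusted p of Frzb reached 0.265 with FMK and 0.262 with OPH. The mean log2 level of the 11 cartilage markers was also lowest in library 2 among the DMSO and OPH cultures, at 6.76 and 5.63. In the FMK cultures it was 5.84, 5.87 and 5.86.

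**Figure D2:**
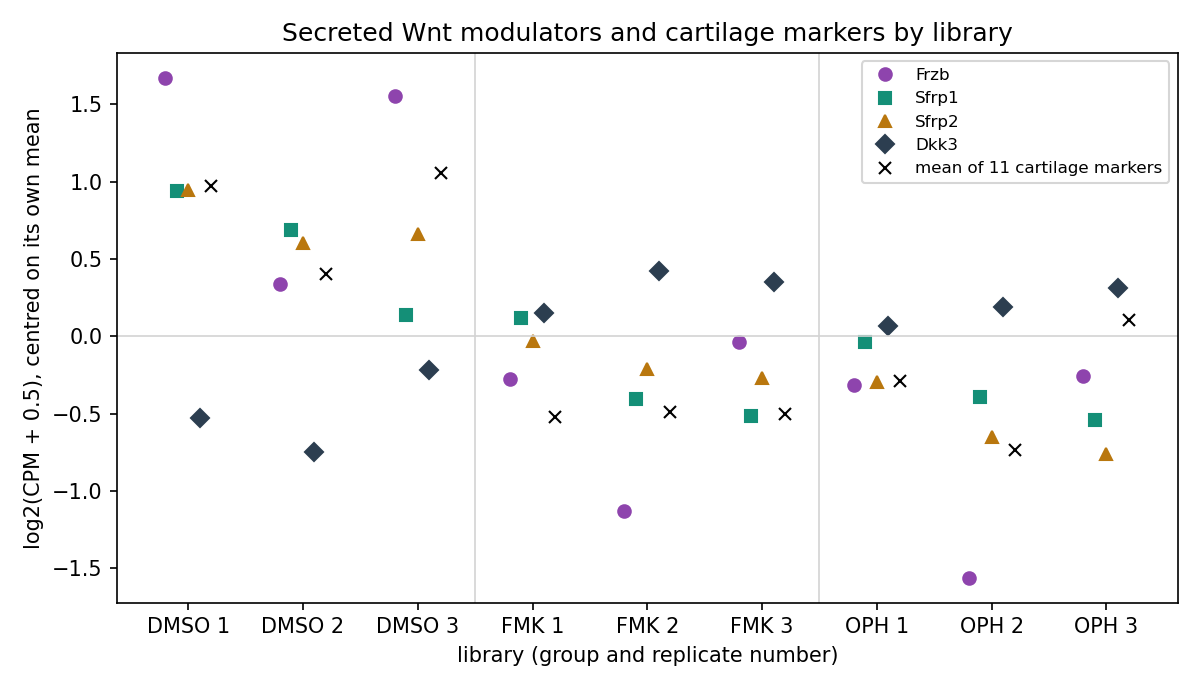
Secreted Wnt modulators and the mean of 11 cartilage markers in each of the 9 libraries, as log2(CPM + 0.5) centred on the gene's own mean over all libraries. Frzb, Sfrp1, Sfrp2 and the cartilage markers sit highest in DMSO libraries and Dkk3 lowest, and Frzb has its lowest point of each group in library 2.

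Wif1 (ENSMUSG00000020218, chromosome 10, 121033960 to 121100650, plus strand) encodes a secreted Wnt inhibitor outside the SFRP family. Its level was low, at 13.2, 19.2 and 9.45 CPM with DMSO, 5.88, 11.8 and 4.78 with FMK, and 9.84, 12.1 and 10.4 with OPH. Library 2 was the highest in each group, and the groups overlapped. With FMK the log2 fold change was -0.88 ± 0.32 (edgeR adjusted p = 0.0665), which became -0.91 ± 0.25 and was called with the block (adjusted p = 0.00556). It was also called without DMSO replicate 3 (adjusted p = 0.0242) or without FMK replicate 2 (adjusted p = 0.00921). In all, 5 of 15 alternatives called Wif1 with FMK, and among the others the adjusted p reached 0.297. With OPH the log2 fold change was -0.37, with an adjusted p of 0.499.

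Dkk3 (ENSMUSG00000030772, chromosome 7, 112116017 to 112159057, minus strand) is a divergent member of the Dickkopf family of secreted proteins, and its action on Wnt signalling is less settled than that of its relatives. The 3 DMSO libraries held 120, 103 and 149 CPM, the FMK libraries 192, 232 and 222, and the OPH libraries 181, 198 and 215. All 6 inhibitor libraries were above all DMSO libraries. Dkk3 rose by 0.79 ± 0.12 on the log2 scale with FMK (edgeR adjusted p = 0.000191) and by 0.67 ± 0.12 with OPH (adjusted p = 0.00116). Under the 15 alternatives the adjusted p was at most 0.00202 and 0.00845.

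Dkk2 (ENSMUSG00000028031, chromosome 3, 132085292 to 132180304, plus strand), a Dickkopf protein that binds LRP co-receptors, was measured at 140, 118 and 138 CPM with DMSO, 164, 120 and 93.1 with FMK, and 118, 95.1 and 84.2 with OPH. The FMK libraries spread on both sides of the DMSO libraries, and FMK library 3 and OPH libraries 2 and 3 were below all DMSO libraries. The log2 fold change was -0.07 ± 0.20 with FMK (edgeR adjusted p = 0.864) and -0.41 ± 0.20 with OPH (adjusted p = 0.232). With the block the OPH value was -0.43 ± 0.11 and was called (adjusted p = 0.00674). In all, 3 of 15 alternatives called Dkk2 with OPH, and among the others the adjusted p reached 0.449.

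Rspo3 (ENSMUSG00000019880, chromosome 10, 29452416 to 29535867, minus strand), an R-spondin that strengthens Wnt signals, was measured at 361, 374 and 250 CPM with DMSO, 317, 286 and 237 with FMK, and 286, 308 and 306 with OPH. Libraries of all groups overlapped, with DMSO library 3 below all OPH libraries. The log2 fold change was -0.23 ± 0.15 with FMK and -0.13 ± 0.15 with OPH (edgeR adjusted p = 0.335 and 0.642). Without DMSO replicate 3 the FMK difference was called (adjusted p = 0.0118). In libraries 1 and 2 alone both were called (adjusted p = 0.0257 and 0.023). These were the only calls on Rspo3 among 15 alternatives for each comparison.

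Wnt5a (ENSMUSG00000021994, chromosome 14, 28504750 to 28527448, plus strand) is the ligand among the 10 genes, known for non-canonical signalling in limb outgrowth. Its level was 73.1, 75.3 and 71.9 CPM with DMSO, 82.7, 83.6 and 84.1 with FMK, and 72.7, 68.0 and 82.3 with OPH. The FMK libraries were above all others, but by little: the log2 fold change was 0.18 ± 0.10, with a 95% interval of -0.02 to 0.39 (edgeR adjusted p = 0.218). With OPH it was 0.02 ± 0.10 (adjusted p = 0.945).

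Axin2 (ENSMUSG00000000142, chromosome 11, 108920349 to 108950783, plus strand) is a widely used transcriptional readout of canonical Wnt signalling and a negative feedback regulator. It was covered by 41, 20 and 34 counts with DMSO, 24, 23 and 23 with FMK, and 29, 25 and 13 with OPH, so its precision is limited. The groups overlapped at 4.85 ± 1.58, 3.91 ± 0.333 and 3.25 ± 1.07 CPM. The 95% interval of the log2 fold change was -1.16 to 0.54 with FMK and -1.42 to 0.28 with OPH (edgeR adjusted p = 0.655 and 0.395). Lower levels of more than 1 log2 unit are within both intervals.

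Lef1 (ENSMUSG00000027985, chromosome 3, 131110471 to 131224356, plus strand) encodes a TCF/LEF factor and is itself a Wnt target. It had 17, 16 and 29 counts with DMSO, 7, 7 and 12 with FMK, and 21, 11 and 22 with OPH. In CPM every FMK library (1.09 to 2.21) was below every DMSO library (2.58 to 4.21), while the OPH libraries (1.56 to 3.48) overlapped the other groups. The log2 fold change with FMK was -1.10 ± 0.53, with an interval of -2.22 to 0.02 (edgeR adjusted p = 0.167). With OPH it was -0.24 ± 0.50 (adjusted p = 0.818). With so few counts the intervals of Axin2 and Lef1 stay wide.

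**Figure D3:**
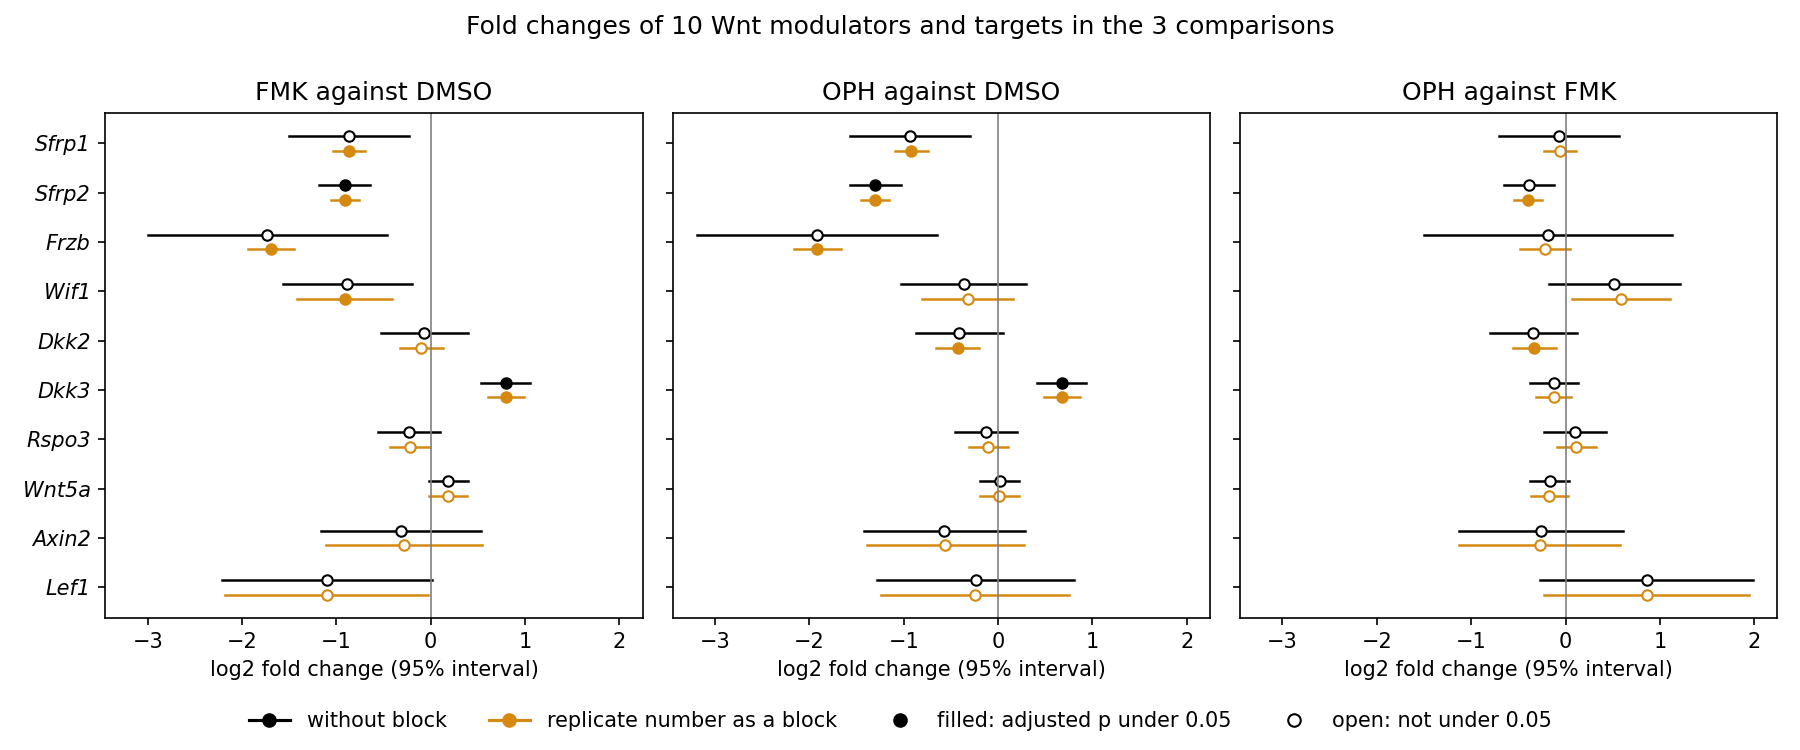
Log2 fold change with its 95% interval for the 10 genes in the 3 comparisons, without a block (black) and with the replicate number as a block (orange); filled points have an adjusted p under 0.05. Sfrp2 and Dkk3 are filled in both fits against DMSO, and the intervals of Frzb and Sfrp1 are narrower with the block.

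The inhibitors were compared at the same dose and time, 1 pair over 13255 genes. Of the 10 genes 0 passed edgeR's quasi-likelihood test between OPH and FMK, beside 8.86% of all genes (4.2% higher and 4.66% lower with OPH). Only 1, Sfrp2, had an unadjusted p under 0.05 in that test, beside 23% of all genes. DESeq2 called 1, limma-voom 0 and the replicate block 2, beside 16.1% of all genes with the block. At an unadjusted p under 0.05 DESeq2 and limma-voom had 1 each, beside 13% and 22.8% of the genes they fitted. DESeq2 was fitted without the filter. Libraries did not overlap for Sfrp2 and Wnt5a, 2 of 10 beside 27.1% of all genes. Sfrp2 was lower with OPH than with FMK by a log2 fold change of -0.39 ± 0.12 (95% interval -0.66 to -0.12, edgeR adjusted p = 0.0718). With the block it was -0.40 ± 0.07 and called (adjusted p = 0.000246), as it was without OPH replicate 1 (adjusted p = 0.00936). In all, 4 of 15 alternatives called Sfrp2 between the inhibitors, and among the others the adjusted p reached 0.228. Dkk2 was the other gene called with the block, at -0.33 ± 0.11 (adjusted p = 0.0486), against -0.34 ± 0.20 without it (adjusted p = 0.378). It was called under 2 of 15 alternatives. For the other genes the intervals were wide enough to hold differences in either direction: -0.70 to 0.57 for Sfrp1, -1.50 to 1.12 for Frzb, -0.38 to 0.13 for Dkk3 and -0.27 to 1.99 for Lef1. A p above the threshold does not show that the compounds act alike on these genes.

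Other genes of the pathway were taken from lists of ligands, receptors, antagonists, regulators and targets. Of 125 such genes 95 passed the filter. With FMK 19 rose and 14 fell, beside the 10.4% of all genes higher and 10.1% lower, and with OPH 11 rose and 6 fell, beside 8.61% and 8.11%. With the block the counts were 21 and 17 with FMK, and 21 and 12 with OPH, beside 26.8% and 22.9% of all genes called. Between OPH and FMK 6 were higher and 6 lower with OPH, beside 4.2% and 4.66% of all genes. With the block these counts were 12 and 10, beside 16.1% of all genes called. The balance of directions turned with the scaling: with library totals only it was 8 higher and 15 lower with FMK, and 15 higher and 1 lower between OPH and FMK. Over all genes that scaling gave 1012 higher and 1938 lower, and 1103 and 385. Among the 33 calls with FMK, 14 held in every alternative, as did 5 of 17 with OPH and 2 of 12 between the inhibitors.

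The R-spondin branch showed both directions. Lgr6, an R-spondin receptor, lay between 3.58 and 4.21 CPM in DMSO libraries, 14.9 and 19.5 in FMK libraries, and 7.75 and 14.4 in OPH libraries, and rose by 2.16 ± 0.27 and 1.48 ± 0.27 (edgeR adjusted p = 1.13e-05 and 0.000976). Rspo2, an R-spondin needed for limb outgrowth, was 132, 137 and 138 CPM with DMSO, 227, 239 and 177 with FMK, and 126, 119 and 124 with OPH. Only the FMK libraries stood above the rest: Rspo2 rose with FMK by 0.66 ± 0.10 (edgeR adjusted p = 0.000123) and was lower with OPH than with FMK by a log2 fold change of -0.80 ± 0.10 (adjusted p = 9.09e-05). Lgr5, a receptor and Wnt target, fell from 47.0 ± 9.94 CPM to 18.6 ± 3.31 with FMK and 22.5 ± 7.42 with OPH, with log2 fold changes of -1.33 ± 0.24 and -1.06 ± 0.24 (edgeR adjusted p = 0.00168 and 0.00824). In libraries 1 and 2 alone the OPH call on Lgr5 was lost (adjusted p = 0.0675). Znrf3, a ubiquitin ligase that removes Frizzled receptors, fell with FMK at a log2 fold change of -0.93 ± 0.27 (edgeR adjusted p = 0.0192) and was higher with OPH than with FMK by 1.10 ± 0.27 (adjusted p = 0.0147). Its FMK call was lost without DMSO replicate 1, DMSO replicate 3 or FMK replicate 3 (adjusted p = 0.0548, 0.0673 and 0.0773), and its call between inhibitors without FMK replicate 3 or OPH replicate 2 (adjusted p = 0.0538 and 0.111). Rspo1 was at 1.11 to 1.78 CPM on average and was not called, and Rspo4 did not pass the filter.

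Of the 18 canonical target genes tested, 5 rose and 3 fell with FMK and 6 rose and 3 fell with OPH. These were 44.4% and 50% of the list, beside 20.6% and 16.7% of all genes. With the block the counts were 5 and 4 with FMK and 7 and 4 with OPH, beside 26.8% and 22.9% of all genes. Nkd1, a feedback inhibitor, fell from 47.8 ± 4.16 CPM to 18.5 ± 5.02 with FMK and 28.7 ± 6.86 with OPH, with log2 fold changes of -1.38 ± 0.19 and -0.74 ± 0.18 (edgeR adjusted p = 6.58e-05 and 0.0109). Its OPH call was lost without OPH replicate 1 or 2 (adjusted p = 0.0561 and 0.0648). Nkd2, its relative, was not called, with log2 fold changes of -0.04 and -0.38. Tbx3, a limb transcription factor, rose by 0.84 ± 0.17 and 0.82 ± 0.17 (edgeR adjusted p = 0.00179 and 0.00275). Bambi, a decoy receptor of the TGF-beta family, rose by 0.59 ± 0.15 and 0.62 ± 0.14 (edgeR adjusted p = 0.00725 and 0.00595). Twist1, a mesenchymal transcription factor, rose by 0.52 ± 0.10 and 0.38 ± 0.10 (edgeR adjusted p = 0.00104 and 0.0139), the latter call being lost without DMSO replicate 1 or OPH replicate 2 (adjusted p = 0.0814 and 0.078). Sox4, a transcription factor of progenitor cells, lay between 563 and 637 CPM in DMSO libraries, 609 and 682 in FMK libraries, and 801 and 866 in OPH libraries. It rose with OPH by 0.46 ± 0.08 (edgeR adjusted p = 0.000311) and was higher with OPH than with FMK by 0.39 ± 0.08 (adjusted p = 0.00347). Myc, a growth regulator, rose with OPH by 1.30 ± 0.26 (edgeR adjusted p = 0.00273); with FMK it rose by 0.79 ± 0.26 (adjusted p = 0.0443), a call lost under 8 of 15 alternatives. Wisp2, a secreted matricellular protein, was lower with OPH than with FMK by a log2 fold change of -0.65 (edgeR adjusted p = 0.0376), a call lost under 7 of 15 alternatives. The list thus held genes of both directions, with Axin2 and Lef1 not called in any of the 3 comparisons.

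Of the 18 receptors tested 3 rose and 6 fell with FMK, and 1 rose and 1 fell with OPH. These were 50% and 11.1% of the list, beside 20.6% and 16.7% of all genes. With OPH the block called 3 higher and 2 lower, beside 22.9% of all genes. Ror2, a receptor for Wnt5a, was 16.5 ± 2.43 CPM with DMSO, 31.9 ± 4.61 with FMK and 25.8 ± 4.03 with OPH, without overlap between DMSO and either inhibitor; it rose by 0.95 ± 0.17 and 0.64 ± 0.18 (edgeR adjusted p = 0.000706 and 0.0166). Its OPH call was lost without DMSO replicate 1 or 2 or OPH replicate 2 or 3 (adjusted p = 0.0606 to 0.0804). Fzd7 rose with FMK by 0.57 ± 0.14 (edgeR adjusted p = 0.00615); with OPH its log2 fold change was 0.39 (adjusted p = 0.061 without the block, 0.0314 with it). Fzd9 fell with FMK at a log2 fold change of -1.31 ± 0.30 (edgeR adjusted p = 0.0118), a call lost without FMK replicate 1 or 2 (adjusted p = 0.0515 and 0.0613); with OPH its log2 fold change was -0.93 (adjusted p = 0.0556 without the block, 1.36e-05 with it). Fzd3 fell with FMK at a log2 fold change of -0.64 ± 0.17 (edgeR adjusted p = 0.0141), a call lost without DMSO replicate 3 (adjusted p = 0.0626). Fzd3 was higher with OPH than with FMK by 0.66 ± 0.17 and Fzd1 lower by a log2 fold change of -0.43 ± 0.11 (edgeR adjusted p = 0.0234 and 0.0212), and each lost its call under 5 of 15 alternatives. Nfatc2, a calcium-responsive transcription factor, fell with both inhibitors, with log2 fold changes of -3.08 ± 0.66 and -1.77 ± 0.58 (edgeR adjusted p = 0.00249 and 0.0431), the latter lost under 6 of 15 alternatives. Its counts were low, at 58, 28 and 16 with DMSO, 2, 7 and 2 with FMK, and 11, 7 and 13 with OPH. Fzd1 also fell with OPH against DMSO, at a log2 fold change of -0.33 (edgeR adjusted p = 0.0452), a call lost under 9 of 15 alternatives.

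Of 22 non-canonical genes tested 7 rose and 1 fell with FMK, and 2 rose and 2 fell with OPH. These were 36.4% and 18.2% of the list, beside 20.6% and 16.7% of all genes. With library totals only the FMK counts were 1 and 1, and in libraries 1 and 2 alone 3 and 1, so the excess of rises depended on these settings. With the block they were 8 and 1, and 5 and 3 with OPH, beside 26.8% and 22.9% of all genes. Daam1, which links Wnt receptors to the cytoskeleton, Ryk, a Wnt co-receptor, and Camk2d, a calcium-dependent kinase, rose with FMK by 0.41, 0.27 and 0.38 (edgeR adjusted p = 0.0174, 0.0211 and 0.0221). These 3 calls were lost with library totals only (adjusted p = 0.0664, 0.146 and 0.085) and without DMSO replicate 3 (adjusted p = 0.0584, 0.0715 and 0.101). Camk2d also rose with OPH by 0.40 (edgeR adjusted p = 0.0208) and Nfatc1, a relative of Nfatc2, fell at a log2 fold change of -0.55 (adjusted p = 0.0213), each lost under 4 of 15 alternatives.

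**Figure D4:**
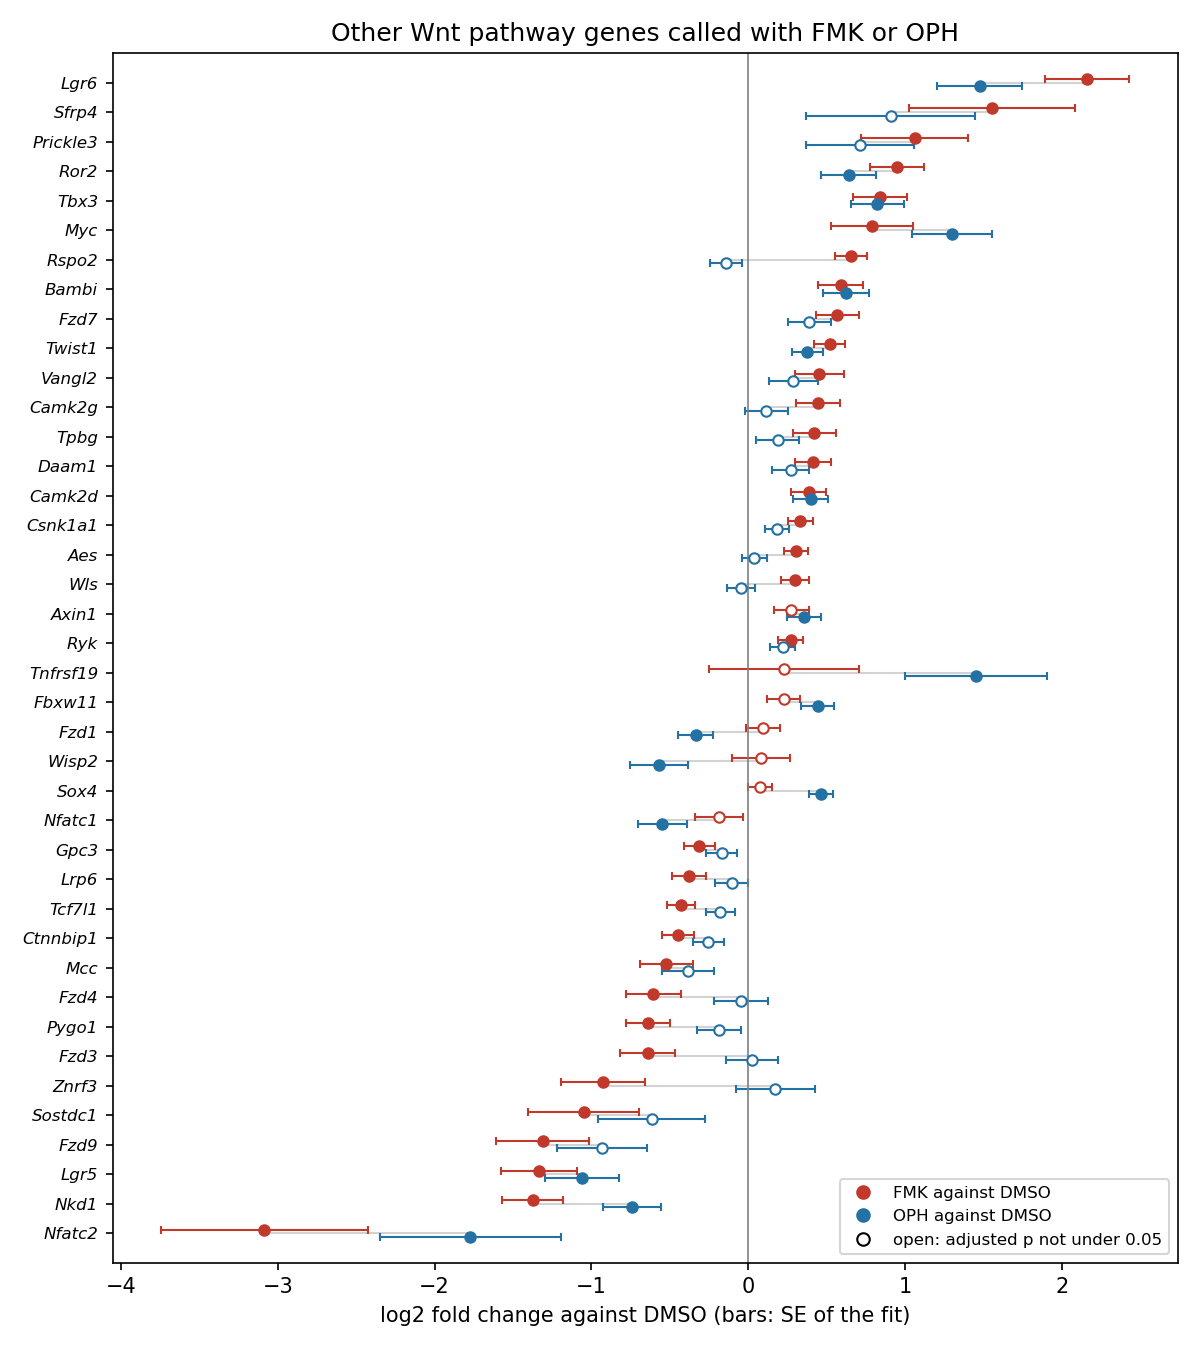
Log2 fold change against DMSO, with the standard error derived from the F value, of each other Wnt pathway gene called with FMK (red) or OPH (blue). Open points have an adjusted p not under 0.05. Lgr6 lies at 2.16 and 1.48 and Nkd1 at -1.38 and -0.74, while Rspo2 lies at 0.66 with FMK and -0.14 with OPH.

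Of 18 genes listed for the destruction complex, which degrades beta-catenin, 1 rose with FMK and 2 with OPH, and 0 fell with either. These were 5.56% and 11.1% of the list, below the 20.6% and 16.7% of all genes called. With the block 2 rose with FMK and 7 with OPH, beside 26.8% and 22.9% of all genes called in either direction. The list also held Ctnnb1 and regulators such as Dvl1, Dvl2, Dvl3, Tnks and Tnks2, so its counts are not those of the complex alone. Csnk1a1, a kinase of the complex, rose with FMK by 0.33 ± 0.08 (edgeR adjusted p = 0.00479), and Fbxw11 and Axin1 rose with OPH by 0.44 and 0.36 (adjusted p = 0.00822 and 0.0295). The Fbxw11 call was lost without DMSO replicate 2 (adjusted p = 0.0503), and the Axin1 call with any 1 of 5 libraries left out, among them DMSO replicate 1 (adjusted p = 0.0842). Ctnnb1, which encodes beta-catenin, was 819 ± 89.1, 816 ± 49.5 and 752 ± 18.9 CPM with DMSO, FMK and OPH and was not called (edgeR adjusted p = 0.977 and 0.352). Of 13 TCF/LEF factors and partners 1 rose and 3 fell with FMK, and 0 passed the edgeR test with OPH. These were 30.8% and 0% of the list, beside 20.6% and 16.7% of all genes. With OPH the block called 1 higher and 2 lower, beside 22.9% of all genes. Tcf7l1, a repressive TCF, fell with FMK at a log2 fold change of -0.43 ± 0.09, as did Pygo1, a beta-catenin co-activator, at -0.64 ± 0.14 and Ctnnbip1, a beta-catenin inhibitor, at -0.45 ± 0.10 (edgeR adjusted p = 0.00249, 0.0033 and 0.00382). Aes, a Groucho-related repressor, rose with FMK by 0.31 and was lower with OPH than with FMK at a log2 fold change of -0.27 (edgeR adjusted p = 0.0098 and 0.0427). The first call was lost with library totals only (adjusted p = 0.0775) and the second under 10 of 15 alternatives. Tle4, a Groucho co-repressor, and Dvl2, a Dishevelled protein, were higher with OPH than with FMK by 0.70 and 0.38 (edgeR adjusted p = 0.0234 and 0.0387), lost under 4 and 8 of 15 alternatives. Tcf7 did not pass the filter, with 7, 23 and 9 counts summed over the DMSO, FMK and OPH groups. Tpbg, a membrane inhibitor of Wnt signalling, rose with FMK by 0.42 (edgeR adjusted p = 0.0353), lost under 9 of 15 alternatives. Lypd6, a membrane-anchored regulator of Wnt co-receptors, was higher with OPH than with FMK by 1.37 (edgeR adjusted p = 0.0173), lost without FMK replicate 3, OPH replicate 1 or OPH replicate 2 (adjusted p = 0.0575, 0.0839 and 0.076). Wls, the carrier that Wnt ligands need for secretion, rose with FMK by 0.30 ± 0.09 (edgeR adjusted p = 0.0256), but not with scaling by library totals (adjusted p = 0.137). Wls was lower with OPH than with FMK at a log2 fold change of -0.34 ± 0.09 (edgeR adjusted p = 0.0243), lost under 5 of 15 alternatives. Its FMK call was also lost without DMSO replicate 1, DMSO replicate 2 or FMK replicate 3 (adjusted p = 0.0785, 0.119 and 0.0991).

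Among antagonists beside the 10 genes, Sfrp4 rose and Sostdc1 fell with FMK, with log2 fold changes of 1.56 ± 0.53 and -1.05 ± 0.35 (edgeR adjusted p = 0.0452 and 0.0443). Sfrp4 lost its call under 8 of 15 alternatives and Sostdc1 under 7. Counts of Sfrp4 were low, at 8, 4 and 14 with DMSO and 35, 21 and 15 with FMK. Sfrp5 did not pass the filter, with 15, 7 and 9 counts in DMSO libraries, 0 in each FMK library, and 3, 2 and 0 with OPH. If 3 counts are assumed as the upper limit over the FMK group, its pooled level was at least 9.54-fold lower there. That bound makes no allowance for the spread between libraries. Without the filter the log2 fold change of Sfrp5 was -6.36 ± 1.75 with FMK and -2.61 ± 1.19 with OPH (edgeR adjusted p = 0.00342 and 0.178). With 0 counts in each FMK library, the size of the FMK value is not a usable estimate. Dkk1 had 9, 4 and 9 counts summed over the DMSO, FMK and OPH groups and did not pass the filter. Without the filter its log2 fold change was -0.94 ± 1.45 with FMK and -0.07 ± 1.37 with OPH (edgeR adjusted p = 0.766 and 1). Dkk4 had 0 counts in all groups. Of 7 Wnt ligands tested 0 passed the edgeR test against DMSO, beside 20.6% of all genes with FMK and 16.7% with OPH. Wnt16 was lower with OPH than with FMK by a log2 fold change of -0.62 (edgeR adjusted p = 0.0466), lost under 8 of 15 alternatives. Wnt5b, the closest relative of Wnt5a, had a log2 fold change of -0.78 with OPH that was called with the block (edgeR adjusted p = 0.0762 without, 0.00925 with).

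Genes whose profile lay nearest to each of the 10 were found by the root mean square difference of centred log2(CPM + 0.5) over the 9 libraries, among genes of at least 10 CPM on average. For Frzb the nearest was Cnmd, a cartilage matrix gene, at 0.128 log2 units, followed by Matn1, another cartilage matrix gene, at 0.4. Sfrp1 lay nearest to Cst3 at 0.175 and Slc9a9 at 0.177, and Sfrp2 to Dnase1l1 at 0.145 and Agtr1a at 0.161. Dkk3 lay nearest to Ccdc6 at 0.114 and to Bambi at 0.117. The nearest genes were Pdxk at 0.168 and Tmtc1 at 0.243 for Wif1, Ssc5d at 0.105 and Ube2q2 at 0.13 for Dkk2, Adamts5 at 0.0764 and Upf3b at 0.0952 for Rspo3, and Bzw1 at 0.0499 and Gnb1 at 0.0506 for Wnt5a. For the low-count genes they were Lmnb2 at 0.184 and Slc46a1 at 0.191 for Axin2, and Uros at 0.203 and St3gal5 at 0.219 for Lef1. A flat profile gives small differences to many genes, so the distances are not comparable between genes.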

How the data were processed

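Deposited by the authors were raw counts per gene for 9 libraries of a 3'-end kit (per the labels' protocols), in which each read marks the end of a transcript. Per the file headers, the authors' table also holds DESeq2 log2 fold changes and p-values. The submitters' processing notes list mm10 and the tools STAR, cutadapt, FastQC, MultiQC and DESeq2; versions, counting program, annotation and use of strand: not given in the sources used here, so reads shared by overlapping or antisense genes may have been split. The 99 spike-in rows, with 1 count in all, were left out. Positions are on GRCm38, the assembly of mm10.

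The tests used edgeR 4.0.16 under R 4.3.3: filterByExpr (13255 genes), TMM scaling, and a robust quasi-likelihood F test, two-sided, on all 9 libraries with 1 coefficient per group, adjusted by Benjamini-Hochberg with a threshold of 0.05. The code was tested on simulated data. With library totals only as the scaling, the genes tested had a median log2 difference of -0.11 for FMK against DMSO and 0.12 for OPH against FMK. The calls with FMK against DMSO were 1383 higher and 1341 lower, against 1012 and 1938 with library totals; those of OPH against FMK were 557 and 618, against 1103 and 385. Deviations from the group means correlated in every pair of libraries with the same replicate number (r = 0.109 to 0.356), where pairs with different numbers had r = -0.284 to 0.0166. The pairing thus comes from these data; the labels state no shared litter or day.

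The 10 genes and all lists were chosen with earlier results of these data known. Named beside them were, in each comparison, the genes past the threshold with the 4 smallest p per pathway list, 12 fixed relatives, and the 2 genes of nearest profile to each member. Marker genes of other cell types were named after their values were seen. Alternatives were RLE scaling or library totals, no filter or 1 CPM in 3 libraries, DESeq2 1.42.0, limma-voom (limma 3.58.1), the block, fits of 2 groups, libraries 1 and 2 alone, and each library left out. List counts under these were added after the data were seen.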

Additional observations from a re-analysis of the deposited data

How the results depend on the processing

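For the 10 genes, 132 of 150 checks kept the side of the threshold with FMK. With OPH 137 of 150 did, and between OPH and FMK 144 of 150. In the rest a gene became called, none lost a call, and no gene called in either fit changed direction. Genes called in neither fit could change sign. Dkk2 ran from -0.31 to 0.14 with FMK over the alternatives, and Frzb from -0.46 to 0.13 between OPH and FMK. The count of called genes with FMK against DMSO was 2 of 10, and became 4 with library totals only, 4 with DESeq2, 4 with limma-voom, 5 with the replicate block, 4 in libraries 1 and 2 alone, and 2 to 5 with 1 library left out, 5 without DMSO replicate 3. With OPH against DMSO it was 2, and became 4 with DESeq2, 4 with limma-voom, 5 with the block and 4 in libraries 1 and 2 alone. Between OPH and FMK it was 0, and became 2 with no filter, 1 with DESeq2, 2 with the block and 0 to 1 with 1 library left out, 1 without OPH replicate 1. According to the authors' deposited table, 4, 4 and 1 of the 10 genes had an adjusted p under 0.05 in these comparisons. Calls over all genes moved with the setting too, so these counts alone give no result about the 10 genes. With the block 26.8%, 22.9% and 16.1% of all genes were called, against 20.6%, 16.7% and 8.86% without it. With library totals 1012 genes were higher and 1938 lower with FMK, against 1383 and 1341. Shares of all genes called by DESeq2, limma-voom and the authors are not given here. For all genes called, OPH against FMK, the count was 1175, and became 2139 with the block, and 571 to 1050 with 1 library left out (712 without FMK replicate 1, 709 without FMK replicate 2, 571 without OPH replicate 2); the cause was not tested. For the 10 genes the block changed no other call than those given beside the results. Axin2 and Lef1, with 7 to 41 counts per library, are limited by depth.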
